A study of Mus musculus with 13 samples.

Results

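Reelin pathway and lissencephaly genes were followed here in the cerebral meninges of newborn mice: Reln, Vldlr, Lrp8, Dab1, Cdk5, Cdk5r1, Pafah1b1, Ndel1, Dcx and Dclk1, which are 10 of the 19938 genes tested. Each was read from the brightest probe set that carries its symbol alone, and each of the 10 had exactly 1 such probe set. The 4 mutants were Pdgfc-/-; Pdgfra GFP/+ pups, which lack PDGF-C and carry a GFP cassette in place of 1 functional copy of its receptor gene, Pdgfra. The 9 controls were the remaining pups of the same single litter. They mixed pups with the Pdgfra GFP allele (Pdgfc+/+ or Pdgfc+/-) and pups without it (Pdgfc-/-, Pdgfc+/- or Pdgfc+/+), so that Pdgfc-/- was among the control genotypes too. The genotype of each control pup is not given in the sources used here. The strain is labelled C57BL6 (C57BL/6J in the methods), and RNA of the dissected meninges of 1 pup was hybridized to each Affymetrix Mouse Gene 1.0 ST array, a chip that reads a gene through a set of short probes. Values are PLIER intensities in arbitrary units, changes are on the log2(intensity + 16) scale, and "rose" or "fell" was used only of a limma test with a Benjamini-Hochberg adjusted p under 0.05 over all tested genes.

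Reelin is a large glycoprotein secreted at the surface of the developing cortex, classically by Cajal-Retzius cells of the marginal zone, just under the meninges, and later also by interneurons. It binds the lipoprotein receptors VLDLR and ApoER2 (the product of Lrp8) on migrating neurons, which leads to phosphorylation of the adaptor DAB1 by Src family kinases and instructs neurons where to stop. CDK5 with its activator p35 (the product of Cdk5r1), the dynein regulator LIS1 (the product of Pafah1b1) with its partner NDEL1, and the microtubule binding proteins doublecortin and DCLK1 serve the movement of the nucleus and the leading process. In humans, mutations of RELN, PAFAH1B1 or DCX cause lissencephaly, a cortex with few or no folds.

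Of the 10 genes, 8 rose in mutant meninges and 0 fell, where 8.58% of all tested genes rose and 6.31% fell. The fold exceeded 2 for 6 of them, Dcx, Reln, Cdk5r1, Vldlr, Dclk1 and Dab1, against 3.28% of all tested genes, and 0 fell by more than 2-fold (0.792% of all). In the same 6 genes every mutant lay above every control, which held for 6.4% of all genes, and in 0 did every mutant lie below (3.04% of all). The median log2 change of the 10 was 1.85, and that of all tested genes was 0.004. Reln, Dcx, Vldlr and Dab1 had already been picked out by the study from these same arrays, so their direction is not independent evidence. In whole tissue, more cells of a type and more RNA per cell cannot be told apart.

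**Figure D1:**
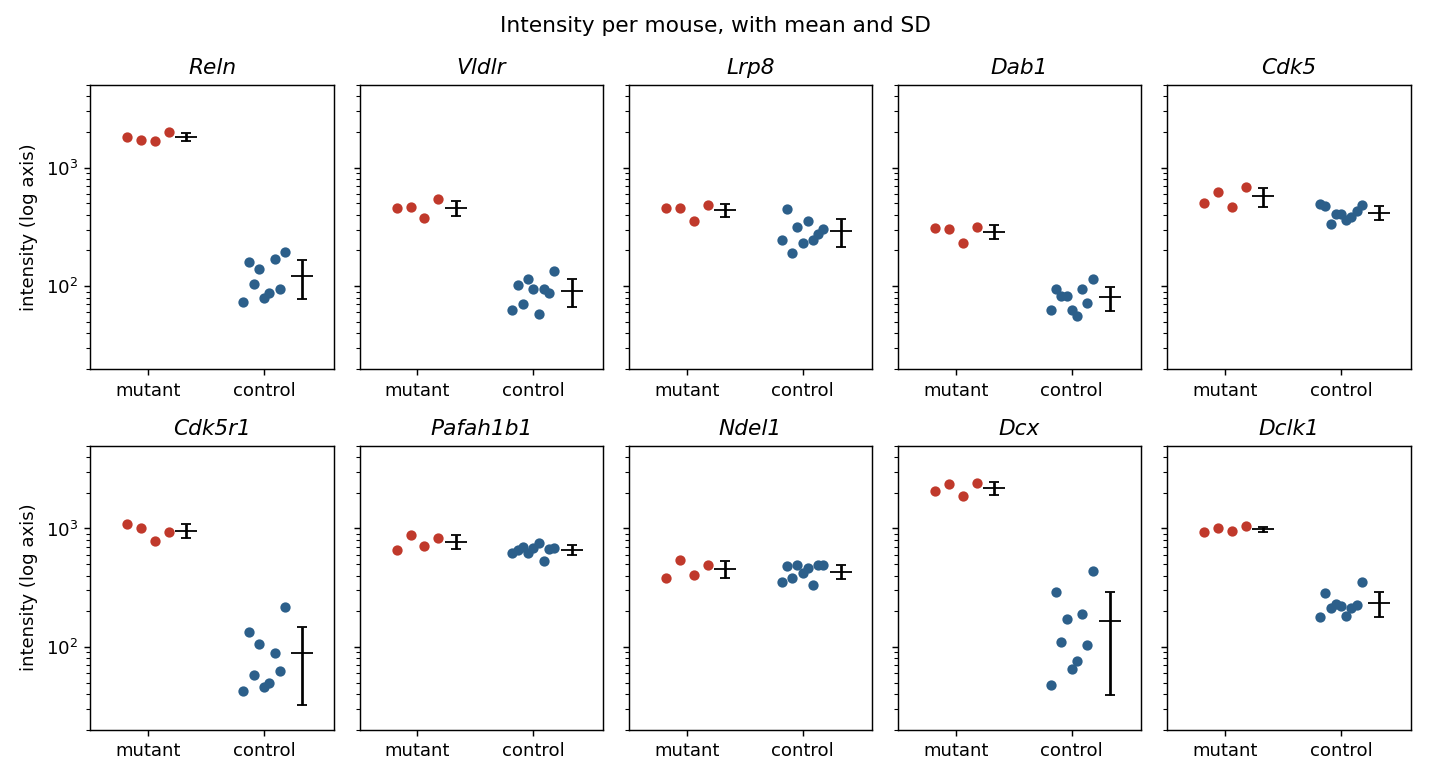
Intensity of the 10 genes (log axis, arbitrary PLIER units) in the 4 mutants, on the left of each pair, and the 9 controls, on the right; each point is 1 mouse and bars give mean and SD. For Reln, Vldlr, Dab1, Cdk5r1, Dcx and Dclk1 all 4 mutants sit above all 9 controls, while the groups overlap for Lrp8, Cdk5, Pafah1b1 and Ndel1.

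**Figure D2:**
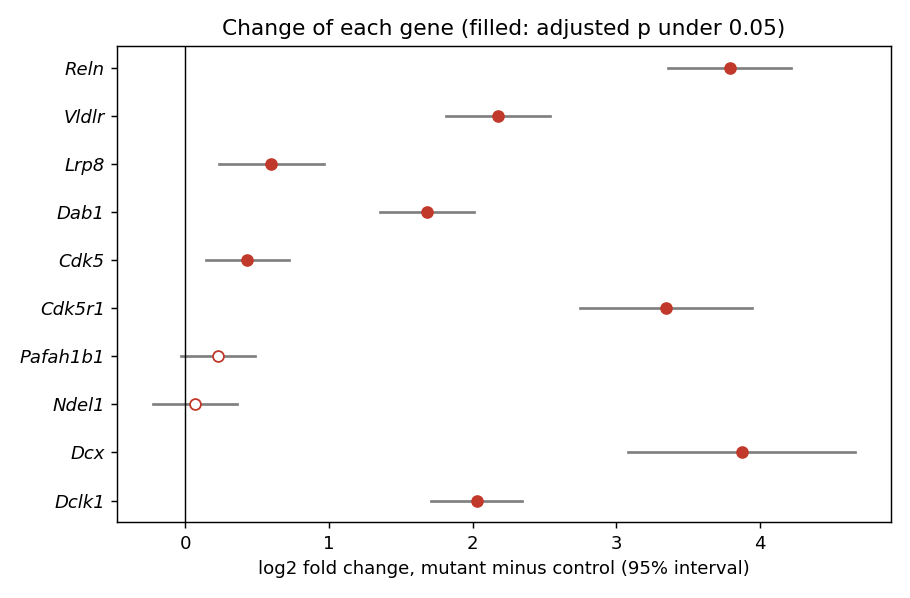
Change of each of the 10 genes in mutants over controls on the log2(intensity + 16) scale, with its 95% confidence interval from limma (4 mutants, 9 controls); filled points passed the test. The values run from 3.87 for Dcx to 0.07 for Ndel1, and the intervals of Pafah1b1 and Ndel1 include 0.

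The stretches just before the annotated starts of 4 of the genes are shown for the first steps of the pathway, the ligand Reln, the receptor Vldlr and the adaptor Dab1, which rose without overlap, and for Ndel1, which had the smallest change and did not pass the test. They were taken from RefSeq (GRCm38.p6), where 8 of the 10 genes were matched to a promoter entry, and each ends at the base before the gene's annotated start. All are printed from 5′ to 3′ on the gene's own strand. Capitals mark GC boxes, the letters GGGCGG or their reverse complement CCGCCC.
Reln, chr5:22344706-22344955, minus strand: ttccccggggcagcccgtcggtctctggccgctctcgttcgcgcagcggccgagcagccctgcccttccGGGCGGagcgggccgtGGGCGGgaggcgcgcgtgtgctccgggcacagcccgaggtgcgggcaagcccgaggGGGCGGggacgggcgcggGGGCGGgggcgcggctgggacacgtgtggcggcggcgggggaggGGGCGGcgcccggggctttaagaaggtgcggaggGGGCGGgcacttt
Vldlr, chr19:27216234-27216479, plus strand: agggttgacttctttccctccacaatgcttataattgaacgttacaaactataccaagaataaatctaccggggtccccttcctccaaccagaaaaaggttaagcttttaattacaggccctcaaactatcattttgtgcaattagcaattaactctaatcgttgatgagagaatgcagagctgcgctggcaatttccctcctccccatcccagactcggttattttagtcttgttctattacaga
Dab1, chr4:103619250-103619499, plus strand: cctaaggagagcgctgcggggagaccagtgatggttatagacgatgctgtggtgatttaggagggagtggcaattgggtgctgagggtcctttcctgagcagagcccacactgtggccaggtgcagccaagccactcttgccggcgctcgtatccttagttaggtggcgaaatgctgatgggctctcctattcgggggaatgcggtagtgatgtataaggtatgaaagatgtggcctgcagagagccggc
Ndel1, chr11:68853147-68853385, minus strand: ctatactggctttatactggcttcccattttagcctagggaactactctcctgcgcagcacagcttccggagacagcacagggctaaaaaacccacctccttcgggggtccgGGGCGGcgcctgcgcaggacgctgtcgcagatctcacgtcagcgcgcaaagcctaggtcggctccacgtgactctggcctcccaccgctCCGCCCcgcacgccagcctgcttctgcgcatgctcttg
The Reln stretch held 6 GC boxes and 37 CpG dinucleotides in 250 bases, and 80% of its bases were G or C. Ndel1 had 2 GC boxes, 19 CpG and 1 TATA box (TATAAA, or TTTATA on the other strand) in 239 bases. Neither Vldlr, with 5 CpG in 246 bases, nor Dab1, with 10 CpG in 250 bases, held a GC box or a TATA box in these windows. Among 32851 upstream windows of the RefSeq table, 32.7% held a GC box and 12.4% a TATA box, and the median window had 6 CpG. A match to these letters is a description of the sequence and not of binding or of a working promoter element. The TATA match of Ndel1 lies near the 5′ end of its stretch, far from the annotated start.

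Reln, the ligand, is on chromosome 5 (bases 21884454 to 22344705 in GRCm38.p6, the build of the annotation table; the build behind the arrays' files is not given in the sources used here). Its intensity was 1806, 1730, 1697 and 2016 in mutants 1 to 4. The 9 controls ranged between 73.4 and 193, with a median of 104. Mutant values were thus close to each other and far above the controls, whose own values spread 2.63-fold. Means were 1812 ± 144 in mutants and 122 ± 43.9 in controls (SD, n = 4 and 9), a log2 change of 3.79 (SE 0.21, 13.8-fold, adjusted p = 2.33e-10). This was the 11th largest rise of all 19938 genes, and the 17th with a constant of 1 in place of 16.

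The lipoprotein receptors moved unequally. Vldlr (chromosome 19, 27216480 to 27254231) measured 457, 463, 379 and 539 in the mutants, against 57.7 to 135 in the controls (median 95). All mutants were above all controls, and the log2 change was 2.17 (SE 0.17, 4.52-fold, adjusted p = 1.39e-08). Lrp8 (chromosome 4, 107802200 to 107876840) measured 457, 454, 358 and 485 in mutants, against 189 to 449 in controls (median 273). Here the groups overlapped, since control 2, at 449, exceeded the lowest mutant. Lrp8 rose by 0.60 (SE 0.18, 1.51-fold, adjusted p = 0.0243), a call that was lost without mutant 1, 2 or 4 (adjusted p = 0.0710, 0.0727 and 0.0811). The log2 ratio of Vldlr to Lrp8 within an array was 0.06 ± 0.07 in mutants and -1.51 ± 0.42 in controls (SD), so the change of Vldlr exceeded that of Lrp8 by 1.58.

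Dab1, which carries the signal from both receptors into the cell, is on chromosome 4 (103619500 to 104744844). It measured 310, 302, 232 and 313 in mutants, against 55.9 to 115 in controls (median 82.0). Mutant 3 was the lowest of the mutants and still above each control. The means were 289 ± 38.7 in mutants and 80.2 ± 18.9 in controls (SD), and the log2 change was 1.68 (SE 0.16, 3.21-fold, adjusted p = 1.04e-07). The ligand changed more than the adaptor: the log2 ratio of Reln to Dab1 was 2.59 ± 0.15 in mutants and 0.48 ± 0.22 in controls, a difference of 2.11.

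The list for the relay of the reelin signal held 18 genes, among them kinases that act on DAB1 itself. Of these 18 genes, 7 rose and 0 fell (median log2 change 0.35), where 8.58% of all genes rose and 6.31% fell. The counts were 10 and 4 with quantile normalization, 10 and 2 with arrays centred on the reference genes, and 4 and 0 in the mice without Xist signal (the 4 mutants and controls 1, 5 and 8). Fyn, a Src family kinase that phosphorylates DAB1, averaged 737 ± 68.2 in mutants and 326 ± 65.5 in controls, a log2 change of 1.16 (adjusted p = 9.62e-06). Cdh2, the adhesion molecule N-cadherin, averaged 667 ± 72.3 in mutants and 280 ± 64.7 in controls (1.23, adjusted p = 1.19e-05). Rapgef1, which encodes an activator of Rap GTPases, rose by 0.82 (adjusted p = 4.26e-04). For these 3 genes the mutants lay above all controls. Of the 7 measured genes listed for reelin cleavage and for turnover of its receptors or DAB1, 2 rose and 1 fell, and the median was 0.07. Socs7, whose product targets DAB1 for degradation, rose by 0.68 (adjusted p = 1.03e-03), with mutants at 166 to 221 and controls at 93.3 to 142. Adamts3, a protease that cleaves reelin, rose by 0.57 (adjusted p = 0.0486), and this call was lost in 17 of 30 alternative settings. Rnf7, the RING subunit that works with CUL5 in the same degradation step, fell by 0.52 (adjusted p = 0.0224), a call lost in 5 of 31 settings. Cul5 (-0.12), Mylip (0.07), which encodes a ligase for lipoprotein receptors, Adamts4 (-0.01) and Dab2ip (0.30) did not pass the test. Dab2ip was counted in this list, but a part of it in cleavage or turnover is not shown here.

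The kinase Cdk5 and its activator Cdk5r1 differed strongly in the size of their change. Cdk5r1 (chromosome 11, 80477023 to 80481184) measured 1092, 1001, 787 and 935 in mutants, against 42.7 to 217 in controls (median 62.6). No control came near the mutants, although the controls themselves spread 5.08-fold, with control 9 highest. The log2 change was 3.34 (SE 0.29, 10.2-fold, adjusted p = 3.60e-08). Cdk5 (chromosome 5, 24407597 to 24423587) measured 508, 620, 469 and 690 in mutants, against 333 to 491 in controls (median 405), and 3 controls exceeded the lowest mutant. Its rise of 0.43 (SE 0.14, 1.35-fold, adjusted p = 0.0407) was close to the threshold. The call was lost in 9 of the 13 runs that left out 1 mouse (controls 3 to 8 and mutants 1, 2 and 4), with adjusted p up to 0.165. It was also lost with Xist as a covariate (0.34, adjusted p = 0.381). The log2 ratio of Cdk5r1 to Cdk5 was 0.73 ± 0.27 in mutants and -2.18 ± 0.62 in controls, a difference of 2.91. Cdk5r2, the gene of the related activator p39, averaged 175 ± 58.6 in mutants and 186 ± 59.6 in controls, a log2 change of -0.07 with a 95% interval of -0.56 to 0.41. Cdk5rap1, Cdk5rap2 and Cdk5rap3 had log2 changes of -0.13, 0.03 and -0.07 and did not pass the test.

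Pafah1b1 and Ndel1, whose products act together on the motor dynein, were the members with no call. Pafah1b1 (chromosome 11, 74673949 to 74724384) measured 663, 883, 712 and 837 in mutants, against 530 to 748 in controls (median 669), and 5 controls exceeded the lowest mutant. The log2 change was 0.23, with a 95% interval of -0.03 to 0.48 (adjusted p = 0.302). Pafah1b1 did pass the test when arrays were centred on the reference genes (0.33, adjusted p = 0.00296) or the fibroblast genes (0.37, adjusted p = 0.00401), or with quantile normalization (0.24, adjusted p = 0.0267). Centring shifts the change of every gene alike, so relative to the median of all genes that of Pafah1b1 necessarily stayed at 0.22. With quantile normalization it was 0.30 relative to that median. Ndel1 (chromosome 11, 68821434 to 68853146) measured 381, 542, 402 and 492 in mutants, against 333 to 489 in controls (median 461). The groups were interleaved, with a log2 change of 0.07 (95% interval -0.23 to 0.36, adjusted p = 0.942). These intervals exclude a change of the size seen for Reln or Dcx. Of 16 LIS1 and dynein partner genes, 3 rose and 0 fell (median 0.12), where 8.58% of all tested genes rose and 6.31% fell. With arrays centred on the reference genes 9 rose and 0 fell, with quantile normalization 7 rose and 4 fell, with array-median centring 3 rose and 1 fell, and in the mice without Xist signal 1 rose and 0 fell. Dync1i1, an intermediate chain of dynein that is enriched in neurons, averaged 321 ± 59.2 in mutants and 68.9 ± 30.7 in controls (log2 change 2.05, adjusted p = 1.46e-06). Dync1h1, the heavy chain, rose by 0.55 (adjusted p = 7.74e-03), with mutants at 741 to 988 and controls at 464 to 736. This call was lost when only mice without Xist signal were compared. Pafah1b3, a catalytic subunit of the acetylhydrolase complex that contains LIS1, rose by 0.50 (adjusted p = 0.0337), a call lost in 13 of 31 settings.

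Dcx and Reln had the largest changes of the 10 genes, and that of Dcx was the 7th largest of all 19938 (the 14th with a constant of 1). Their order is not settled, since without the 4 dimmest arrays Dcx changed by 3.58 and Reln by 3.64. Dcx, a gene of young migrating neurons, lies on the X chromosome (143855842 to 143933396). It measured 2068, 2385, 1889 and 2423 in mutants, against 48.0 to 436 in controls (median 111). The mutants lay within 1.28-fold of each other, whereas the controls spread 9.09-fold, from control 1 to control 9. The log2 change was 3.87 (SE 0.38, 14.6-fold, adjusted p = 2.22e-07), and 4.69 in the mice without Xist signal. Dclk1 (chromosome 3, 55242303 to 55539068), a doublecortin relative with a kinase domain, measured 928, 1010, 954 and 1047 in mutants. Its controls ranged between 179 and 356 (median 220). It rose by 2.03 (SE 0.15, 4.08-fold, adjusted p = 7.19e-09), and the mutants again lay close together, within 1.13-fold. A list of 10 genes set beside Cdk5 and Dcx held doublecortin relatives and also microtubule associated genes that are not their relatives. Of these 10 genes, 4 rose and 1 fell (median 0.03), where 8.58% of all tested genes rose and 6.31% fell. The risers were the microtubule associated genes Mapt (3.39), Map2 (2.69) and Map1b (1.1) and the doublecortin-like kinase gene Dclk2, which averaged 289 ± 27.8 in mutants and 97.9 ± 18.5 in controls (1.43, adjusted p = 2.47e-07). The related Dclk3 was dim in both groups, at 37.2 ± 7.58 in mutants and 37.2 ± 13.8 in controls, with a log2 change of 0.04. Dcdc2a, another gene with doublecortin domains, fell by 0.95 (adjusted p = 1.25e-03), a call that was lost with Xist as a covariate and in the mice without Xist signal.

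Other genes linked to lissencephaly or pachygyria were measured for 14 of 17 names, of which 7 rose and 0 fell, with a median log2 change of 0.50. Of all tested genes, 8.58% rose and 6.31% fell. Tubb2a, a beta tubulin, averaged 2393 ± 335 in mutants and 545 ± 116 in controls (2.12, adjusted p = 5.24e-09). Tubulin genes are near copies of each other, so a part of this signal may come from a paralog. Kif5c, a kinesin of neurons, averaged 513 ± 46.7 in mutants and 62.0 ± 28.6 in controls (2.84, adjusted p = 9.25e-09). Ctnna2, the neuronal alpha catenin, averaged 446 ± 51.9 in mutants and 122 ± 31.2 in controls (1.77, adjusted p = 1.21e-07). Over the 5 lists together, 23 of 65 measured pathway genes rose and 2 fell. Their median log2 change was 0.23. With arrays centred on the reference or the fibroblast genes 35 rose in each case. The count was 19 with Xist as a covariate and 17 in the mice without Xist signal.

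**Figure D3:**
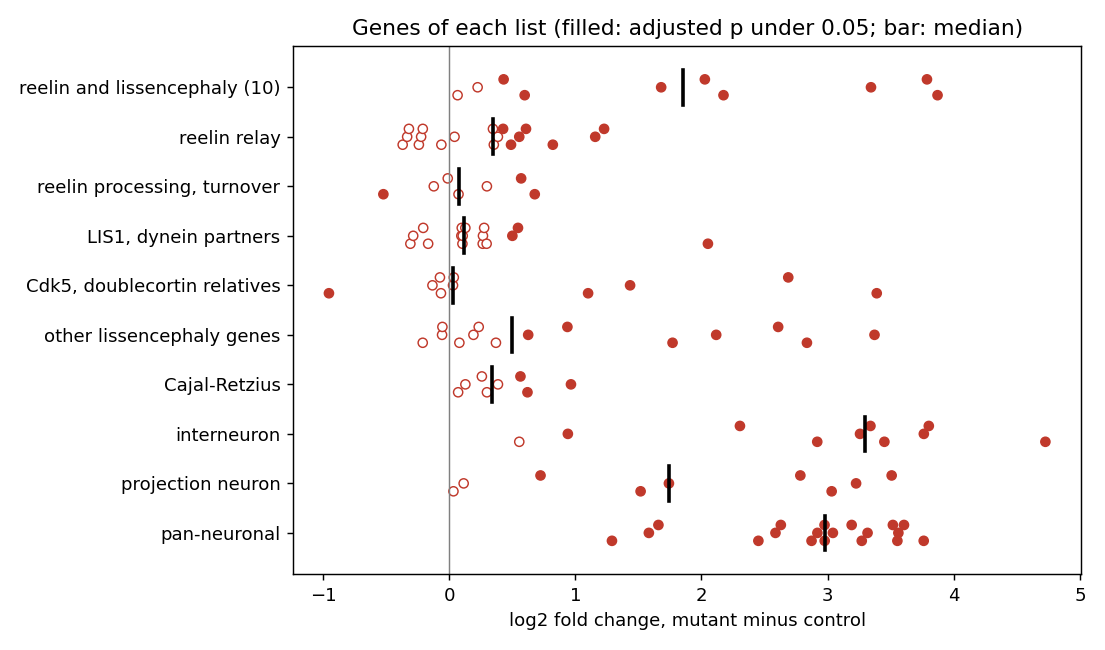
Change of each gene in mutants over controls (log2 scale), 1 point per gene, for the 10 genes, the 5 pathway lists and the lists of Cajal-Retzius, interneuron, projection neuron and pan-neuronal genes; filled points passed the test (adjusted p under 0.05) and bars are medians. The median was 1.85 for the 10 genes and between 0.03 and 0.50 for the pathway lists, beside 2.98 for the pan-neuronal list.

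To set genes of 1 array against each other, 4 log2 ratios were compared between the groups, chosen with earlier results of these data known. The added constant of 16 enters each ratio, and Vldlr over Lrp8, for instance, differed by 1.73 with a constant of 1 and by 1.44 with a constant of 32. A ratio of different probe sets does not give relative transcript levels, but its difference between groups is the difference of their log2 changes. Dcx over Pafah1b1 was 1.48 ± 0.10 in mutants and -2.16 ± 0.96 in controls, a difference of 3.65 (12.5-fold). The other differences were 2.91 for Cdk5r1 over Cdk5, 2.11 for Reln over Dab1 and 1.58 for Vldlr over Lrp8. For each of the 4 ratios all mutants lay above all controls, with p = 0.0014 in a two-sided exact permutation test, the smallest that 715 splits of the mice allow, and 0.0014 after adjustment over the 4 ratios. The upper gene of each ratio already separated the groups alone, so these p-values are not independent evidence.

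**Figure D4:**
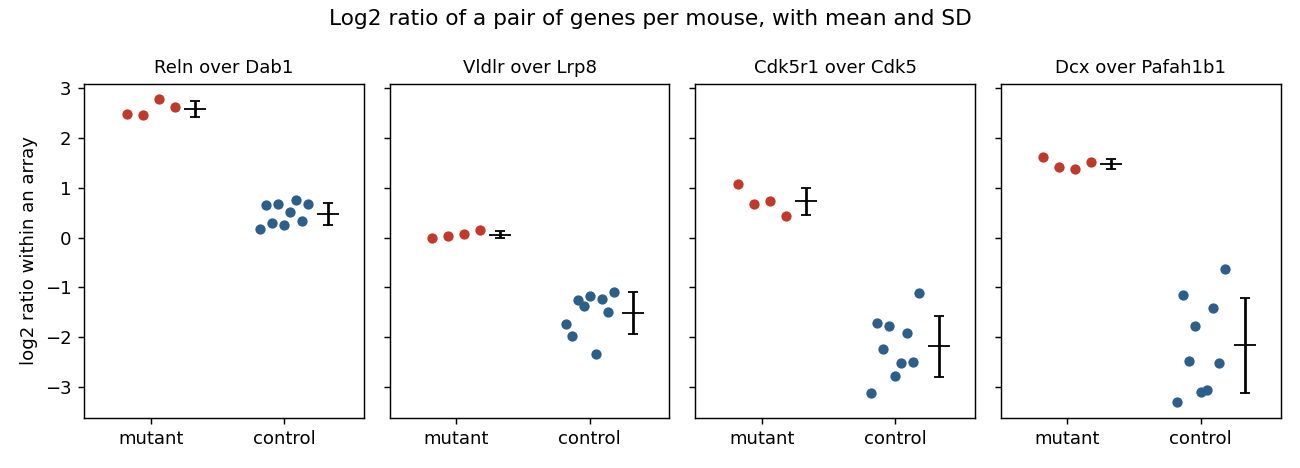
Log2 ratio of the 4 gene pairs within each array, for the 4 mutants, on the left, and the 9 controls, on the right; each point is 1 mouse and bars give mean and SD. Mutant ratios of Dcx over Pafah1b1 ran between 1.39 and 1.62, and control ratios between -3.31 and -0.64.

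The controls were far from uniform for the same genes. Control 9 was the highest control for 6 of the 10 genes and for 15 of 19 pan-neuronal genes. Its Dcx value of 436 lay 1.59 above the control mean on the log2 scale, Cdk5r1 1.3, Reln 0.66, Dclk1 0.60 and Vldlr 0.53, while Pafah1b1 lay 0.07 above. The mean of the pan-neuronal genes was 0.83 higher in control 9 than the control mean. Control 2 was above the control mean for all 10 genes as well, by 1.03 for Dcx and by 0.45 for the pan-neuronal genes. In contrast, control 1 was lowest for 4 of the 10 and lay 1.23 below the mean for Dcx and 0.61 below for the pan-neuronal genes. Without control 9 or any other single mouse, Reln, Vldlr, Dab1, Cdk5r1, Dcx and Dclk1 kept their call, and the log2 change of Dcx, which moved most among them, stayed between 3.72 and 4.07.

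**Figure D5:**
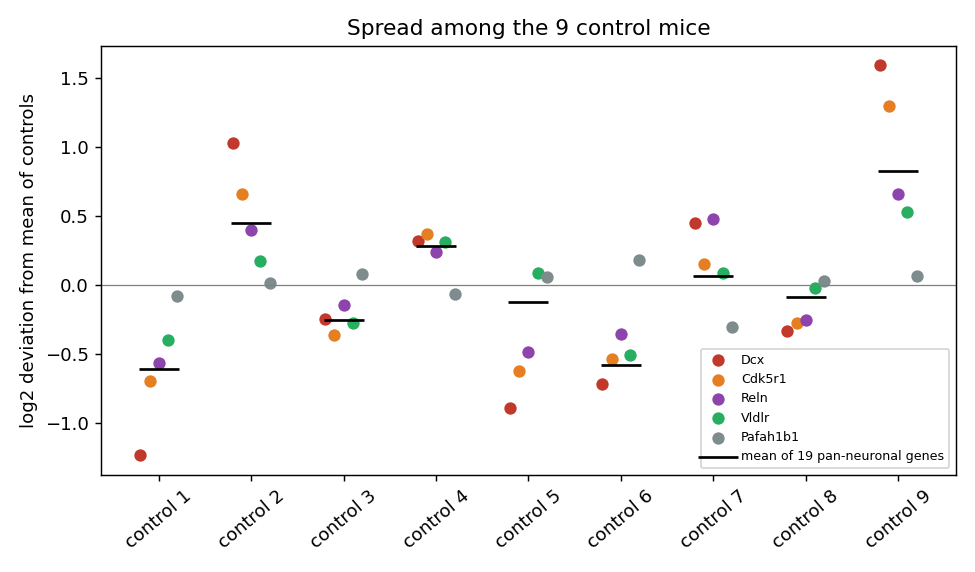
Deviation of each of the 9 controls from the control mean (vertical axis, log2 scale) for Dcx, Cdk5r1, Reln, Vldlr and Pafah1b1, 1 point per gene and mouse, with a bar for the mean of the 19 pan-neuronal genes in that mouse. Dcx spans -1.23 in control 1 to 1.59 in control 9, whereas Pafah1b1 stays between -0.30 and 0.19.

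Markers of nerve cells moved with these genes. All 19 measured pan-neuronal genes rose, with a median log2 change of 2.98, and their summed intensity was 15774 to 19598 in mutants and 1631 to 4601 in controls. None of them averaged under 16 in controls. The neurofilament gene Nefl was at 400 to 566 in mutants and 6.79 to 30.8 in controls, and the synaptic gene Snap25 averaged 548 ± 48.7 in mutants and 34.2 ± 17.8 in controls. On the log2(intensity + 16) scale Reln and Dcx changed more than each of the 19 pan-neuronal genes, and Cdk5r1 more than 14 of them. With a constant of 1, however, 2 pan-neuronal genes changed more than Reln and Dcx, and without control 5, 1 did. For Reln alone, 1 pan-neuronal gene also changed more without control 8, mutant 1 or mutant 4, and with the replicate block. With all mice and the constant of 16, Vldlr, Dab1 and Dclk1 changed less than 16 of the pan-neuronal genes, and the other 4 genes less than all 19. Of the 10 interneuron genes 9 rose, with a median of 3.30 and a summed intensity of 7142 to 9030 in mutants and 444 to 1232 in controls. Sst, the gene of somatostatin, averaged 2278 ± 435 in mutants and 72.6 ± 24.0 in controls. Among the 9 measured genes of cortical projection neurons 7 rose, with a median of 1.74 and a summed intensity of 3000 to 4074 in mutants and 523 to 1479 in controls. The part of these cell types in the changes of the 10 genes was not tested.

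Cajal-Retzius genes, which mark the classical source of reelin, moved less on the log2(intensity + 16) scale. Their 8 genes had a median log2 change of 0.34, 3 rose (1 with Xist as a covariate) and 0 fell, and the summed intensity was 580 to 733 in mutants and 293 to 523 in controls. Ndnf averaged 311 ± 41.5 in mutants and 154 ± 37.4 in controls, a rise of 0.97 (adjusted p = 3.50e-04). Calb2, which also marks interneurons, averaged 49.0 ± 12.7 in mutants and 26 ± 5.74 in controls (0.62, adjusted p = 5.67e-03). Lhx5 was dim, at 29.6 ± 4.87 in mutants and 15.2 ± 6.44 in controls (0.57, adjusted p = 0.0122), so that the added constant of 16 makes its log2 change smaller than the ratio of its intensities. Among settings, the Lhx5 call was lost in 5 of 29 and the Calb2 call in 2 of 29. The defining gene Trp73 averaged 61.5 ± 20.6 in mutants and 44.2 ± 17.1 in controls, a log2 change of 0.39 (adjusted p = 0.355). For Trp73 and Calb2, too, the constant makes the log2 change smaller than the ratio of intensities. Lhx1 had a log2 change of 0.07. Of the 8 measured genes of radial glia and progenitors, Sox2 rose 3.99-fold and the other 7 did not pass the test, while 5 of the 8 rose with centring on the reference or fibroblast genes and 4 with quantile normalization, at a summed intensity of 8310 to 11813 in mutants and 6130 to 8824 in controls. The part of these cells was not tested.

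For the series as a whole, 2968 genes passed the test, 14.9% of those tested, of which 1710 rose and 1258 fell. The median intensity of an array was 56.0 to 89.7 in mutants and 44.1 to 89.0 in controls, so the arrays differ in brightness. Of all calls, 57.6% were rises, and this share was 38.7% with arrays centred on their median, 40.3% with quantile normalization, 70.2% with centring on the reference genes and 74.0% with centring on the fibroblast genes. Centring on the fibroblast or reference genes moved the median change of all genes to 0.14 and 0.11, and array weights moved it to -0.11. The targeted gene Pdgfc averaged 25.7 ± 3.41 in mutants and 164 ± 86.8 in controls (adjusted p = 0.00772). Mutants were at 22.8 to 29.3. Control 2 was the lowest of all mice at 5.88, and the other controls were at 103 to 275. The control genotypes include Pdgfc-/-, but that of control 2 is not given. Pdgfra averaged 1078 ± 352 in mutants and 1764 ± 429 in controls (adjusted p = 0.0276). The genes of meningeal fibroblasts were bright in both groups, with a summed intensity of 28046 to 41427 in mutants and 30518 to 41649 in controls, and 3 of the 15 rose and 3 fell (1 and 3 with Xist as a covariate). Of the 10 reference genes 0 rose and 2 fell. Xist, the RNA that coats the silenced X in female cells, was at 2.24 to 4.77 in mutants and at 4.78 to 8.73 in controls 1, 5 and 8, against 536 to 1020 in the other 6 controls. Sex was thus unevenly spread over the groups. With the 4 mutants and these 3 controls alone, 7 of the 10 genes rose and 0 fell, Cdk5 being the call that was lost (0.35, adjusted p = 0.423). Macrophage genes fell in 9 of 10 cases and endothelial genes in 7 of 10, with 0 rises in either list. With Xist as a covariate 0 of the 10 endothelial genes fell, whereas 7 fell in the mice without Xist signal, and with unequal variances 3 of the 10 macrophage genes fell.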

How the data were processed

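Total RNA of the cerebral meninges of 13 newborn mice (4 mutants, 9 controls) was hybridized to Mouse Gene 1.0 ST arrays, 1 mouse per array. The deposited values are probe set intensities on a linear scale that the authors made from the raw data with PLIER. PLIER's version, how background was handled and whether arrays were scaled to each other are not given in the sources used here. Of 35557 probe sets, 21789 carry 1 gene symbol in the platform table, 1621 several and 12147 none; 21698 matched the RefSeq gene table (GRCm38.p6). A gene was represented by its single-symbol probe set with the highest mean, which gave 19938 tested genes. Mutants were compared with controls on log2(intensity + 16) in R 4.3.3 by a two-sided limma test (version 3.58.1, functions lmFit and eBayes), and p-values were adjusted by Benjamini-Hochberg over all tested genes, with a threshold of 0.05; the log2 change of a gene near or under 16 is smaller than the ratio of its intensities. The study's methods used a t-test and a fold over 2, which were run as alternatives. The 4 ratios were compared with an exact permutation test. The code was tested on simulated data. Figures used matplotlib 3.10.9 in Python 3.11.15.

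All 10 genes are named; of each pathway or marker list, up to 3 risers and 3 fallers with the smallest adjusted p are named, and lists of 10 or fewer may be named whole. The genes and lists were chosen with earlier results of these data known. Mice are separate animals of 1 litter, and a value is set in precision by the number of arrays, which have no read depth. Alternatives changed the scaling, the constant, the filter, the probe set rule, the test, the threshold, the sex covariate, the replicate block and the mice included. Leaving out the 4 dimmest arrays and keeping only mice with Xist under 16 were chosen after the data were seen. Of the 69 pathway genes listed, 65 were measured.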

Additional observations from a re-analysis of the deposited data

Results flagged for a closer look

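Dab1 in mutants was the only 1 of 28 groups (the mutants and the controls of each tested gene or ratio) in which a single mouse stood apart by Dixon's test. Mutant 3 had an intensity of 232, against 302 to 313 in the other 3 mutants, and on the log2(intensity + 16) scale its gap to the next mutant was 0.885 of the range of the 4. Chance alone marks about 1 in 20 such groups. The array of mutant 3 had the lowest median intensity of the mutants, 56.0, against 67.3 to 89.7 in the others. Without it, Dab1 kept its call.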

How the results depend on the processing

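Reln, Vldlr, Dab1, Cdk5r1, Dcx and Dclk1 kept direction and call in all 31 alternatives to which they were refitted, with log2 changes of 3.63 to 4.23 for Reln, 2.01 to 2.36 for Vldlr, 1.53 to 1.90 for Dab1, 3.13 to 3.90 for Cdk5r1, 3.58 to 4.73 for Dcx and 1.92 to 2.18 for Dclk1. The number of the 10 genes that rose was 6 to 8 when 1 mouse was left out and 6 to 9 otherwise, and 0 fell in any setting. Besides the settings named above, the Cdk5 call was lost with all probe sets tested, with array-median centring, with a constant of 1, with the replicate block and with unequal variances (adjusted p = 0.0586, 0.0569, 0.0564, 0.175 and 0.192). The Lrp8 call was lost with the replicate block and with an equal-variance t-test (adjusted p = 0.0903 and 0.0575). The cutoff in the study's methods is on a p with no stated adjustment. Ndel1, never past the threshold, turned to -0.031 with array-median centring and ranged between -0.020 (without mutant 2) and 0.14 when 1 mouse was left out. Pathway genes that rose numbered 20 to 25 when 1 mouse was left out and 35 with centring on the fibroblast or the reference genes. They numbered 33 with quantile normalization, 19 with Xist as a covariate, 18 with the replicate block or unequal variances, and 17 in mice without Xist signal. The 2 pathway genes that fell became 1 with Xist as a covariate, in mice without Xist signal, with the replicate block, with unequal variances and without the 4 dimmest arrays, then 4 with reference centring, 5 with array-median centring and 11 with quantile normalization, and 1 to 3 when 1 mouse was left out (1 without mutant 1 or mutant 3). Over all tested genes, rises numbered 3296 with fibroblast centring, 3001 with reference centring and 1139 with unequal variances, and falls 605 with Xist, 2023 with array weights, 2862 with array-median centring, 3769 with quantile normalization, 545 with the replicate block, 400 with unequal variances, 644 in mice without Xist signal, and 778 and 777 without mutant 1 or mutant 3. The cause of these shifts was not tested. Mutant and control numbers were not read as pairs: deviations of the 4 same-numbered mice correlated at -0.34, 0.16, 0.31 and -0.09. With that replicate block the ratio differences were 3.66 for Dcx over Pafah1b1, 1.64 for Vldlr over Lrp8, 2.94 for Cdk5r1 over Cdk5 and 2.14 for Reln over Dab1, each with p = 0.125 in the exact sign-flip test, the smallest that 4 pairs allow, so the block says nothing of their stability. The number of mice limits precision.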
